A study of Mus musculus with 12 samples.

Results

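The cortex of wild-type mice kept as controls for a knock-in line was compared with that of wild-type mice kept as controls for a knockout line. The libraries were chosen by their labels alone, and they make up 6 of the 12 libraries of the study, 3 on each side. Both sides are adult mice of the C57Bl/6 background with an unmodified Grin1 genotype. Those labelled as wild types of the knock-in line are called KI_WT here, and the knock-in animals of that line (KI, 3 libraries) carry Grin1 with exon 5 made constitutive. Those labelled as wild types of the knockout line are called KO_WT, and the knockout animals of that line (KO, 3 libraries) lack that exon. The libraries were made from poly(A) RNA of cortex with an RNA integrity number above 8 according to the labels. Sex, litter and exact age are not in the labels. The library titles carry numbers, read here as animal numbers, so each library is taken as 1 animal. All 3 KI_WT numbers are over 300, as is that of KO_WT 1, while KO_WT 2 and KO_WT 3 have the numbers 93 and 95. Number range and line are therefore confounded in part.

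Grin1 encodes GluN1, the obligatory subunit of NMDA receptors, which are glutamate-gated calcium-permeable channels of excitatory synapses. Exon 5 of the gene can be spliced in or out, and the included form carries an extra stretch in the extracellular amino-terminal domain. A mutant line is usually set against wild types of its own breeding, and comparing the controls of 2 lines asks how far apart animals without either mutation lie.

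Total counts were 31790970 to 33969744 over the 6 wild types, and 21927 to 22768 genes had at least 1 count. The 10 most abundant genes took 7.06% to 11.4% of the counts, and genes of the mitochondrial genome took 6.28% to 9.31%, highest in KI_WT 2. Excitatory cortical markers were abundant in every library, with Slc17a7, the vesicular glutamate transporter of cortical neurons, at 642 to 763 CPM in KI_WT and 676 to 752 CPM in KO_WT. CPM are counts scaled to library size with trimmed-mean (TMM) factors.

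Most of the genes that set a single library apart did so in KI_WT. A gene was counted when one wild type lay at least 2-fold above or below all 5 others, with at least 5 CPM on the higher side, and 58 genes met this, 52 of them in KI_WT libraries and 6 in KO_WT libraries. KI_WT 1 carried Xist, the RNA that coats the inactive X chromosome, at 750 CPM, while the other 5 libraries had 0.063 to 0.611 CPM. The 4 Y-linked genes measured summed to 0.0323 CPM in KI_WT 1, to 217 and 234 CPM in KI_WT 2 and KI_WT 3, and to 191 to 220 CPM in KO_WT. By these transcripts KI_WT 1 reads as female and the other 5 wild types as male, so sex is not balanced between the sides. The pituitary hormone gene Prl was at 23.5 CPM in KI_WT 1 against 0.571 CPM or less in the others. KI_WT 2 stood apart by 10 genes that were higher. The most abundant were Yam1, annotated as a lincRNA, at 17127 CPM against 4541 to 7591 CPM, and Gm23935, annotated as a miRNA, at 3137 CPM against 1017 to 1530 CPM. Lars2, a mitochondrial leucyl-tRNA synthetase, was at 2956 CPM against 787 to 1188 CPM, and Oxt, the oxytocin precursor, at 11.1 CPM against at most 3.34 CPM. The RNA components of RNase MRP and RNase P (Rmrp at 10.6 CPM and Rpph1 at 9.32 CPM) were also among the 10. The rest were Gm24270, Mir6236 and Gm24187, annotated as miRNAs, and Gm15564, annotated as antisense. Most of the 10 are thus not protein-coding. Whether the reads at these loci, Lars2 included, came from the annotated genes was not tested. KI_WT 3 stood apart by 31 genes that were higher. They included Cdhr1, a cadherin-related protein of mitral cells, at 134 CPM, Doc2g at 71.9 CPM, Th, the enzyme of dopamine synthesis, at 43.9 CPM, Omp, the olfactory marker protein, at 41.2 CPM, and Eomes at 35.0 CPM. In KO_WT 2 the higher genes were Prkcd at 79.8 CPM against 13.5 to 17.2 CPM, Rgs16, Synpo2, Tnnt1 and Shox2, of which all but Shox2 are on the thalamic list. KO_WT 1 stood apart by Wdfy1 alone, at 39.3 CPM against 15.3 to 18.1 CPM, and KO_WT 3 by no gene. These libraries differ in ways the line does not define.

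No gene passed the test between the wild types. Of 17441 genes, 0 had an adjusted p under 0.05 (edgeR, quasi-likelihood, Benjamini-Hochberg; 0% called), and the smallest adjusted p was 0.9998. Without adjustment, p was under 0.05 for 1.96% of genes, of which 193 were higher in KI_WT (1.11%) and 148 lower (0.849%). DESeq2 called 1 gene, limma voom called 0, and edgeR fitted to the 6 wild-type libraries alone called 1. The 3 KI_WT libraries lay entirely above the 3 KO_WT libraries for 607 genes (3.48%) and entirely below them for 668 genes (3.83%), together 1275 (7.31%). A gene without any difference would separate 3 against 3 libraries, in either direction, with a probability of 0.1. The fitted difference was above 0 for 8732 genes (50.1%).

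The fit bounds how large a difference could have gone unseen. The median absolute log2 difference was 0.09, and its median standard error (SE) was 0.14. The 95% interval of the difference stayed within 1.5-fold in either direction for 11699 genes (67.1%) and within 2-fold for 14826 genes (85.0%). The remaining genes could differ by more than 2-fold without being called. A fitted difference over 2-fold was seen for 176 genes, 140 higher and 36 lower in KI_WT. Among the 10094 genes above 10 CPM in both groups only 6 reached it, namely AC149090.1, Mir6236, Prkcd, Prlr, Ttr and Cdhr1. These 6 were named after their values were seen. Of them only AC149090.1 separated the libraries of the lines without overlap, and Mir6236, Prkcd, Prlr, Ttr and Cdhr1 were each set by 1 library or a few.

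**Figure D1:**
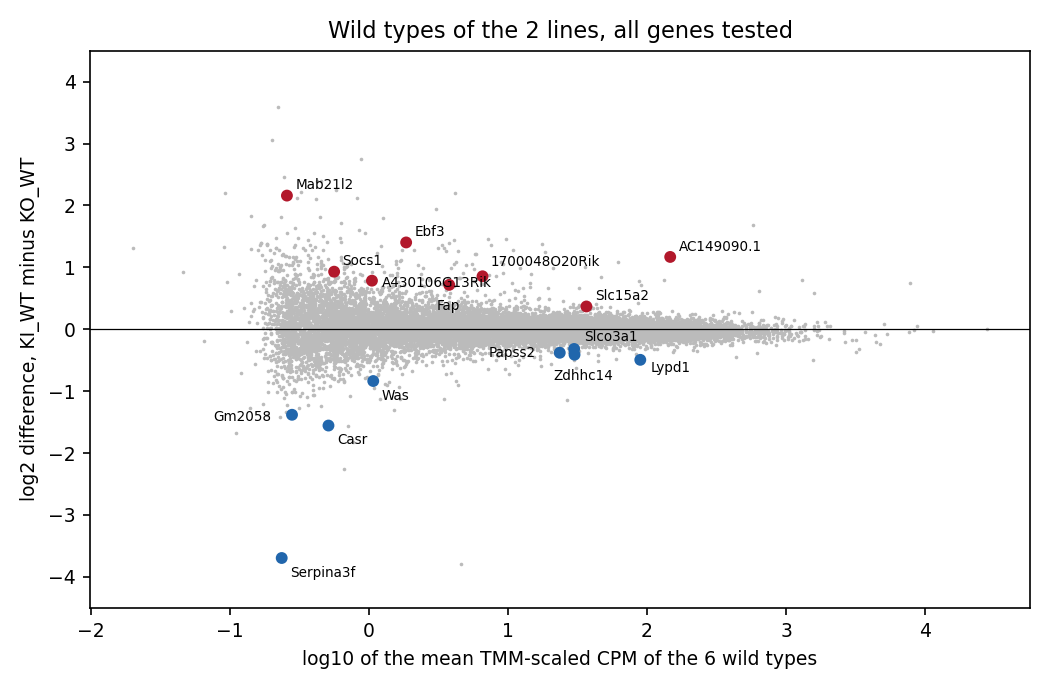
Each grey point is 1 of the 17441 genes tested, with the log10 of its mean TMM-scaled CPM over the 6 wild types on the horizontal axis and its log2 difference (KI_WT minus KO_WT) on the vertical axis, which omits 3 genes past ±4.5. Red and blue points are the 8 higher and 8 lower genes with the smallest p, of which 0 passed the test; spread is wide at low CPM and narrow above 10 CPM, where AC149090.1 lies apart at 1.17.

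Wild types of the knock-in line lay as far from each other as from those of the knockout line. The distance between 2 libraries, taken as the median absolute log2 CPM difference per gene, ran from 0.11 to 0.22 over the 9 pairs that cross the lines, with a median of 0.17. The 3 pairs within KI_WT lay at 0.16, 0.20 and 0.23, and the 3 pairs within KO_WT at 0.12, 0.15 and 0.16. The closest of the 15 pairs was KI_WT 1 with KO_WT 2, and the farthest was KI_WT 2 with KI_WT 3. Genes past a 2-fold difference numbered 181 to 690 in pairs within KI_WT, 238 to 265 in pairs within KO_WT and 114 to 638 in pairs across the lines. KI_WT was the more variable side, with a median SD of 0.17 on the log2 scale against 0.12 in KO_WT, a larger SD in 64.1% of genes, and a range over 2-fold in 779 genes against 371. Because pairs share libraries, these distances are given as a description without a test.

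**Figure D2:**
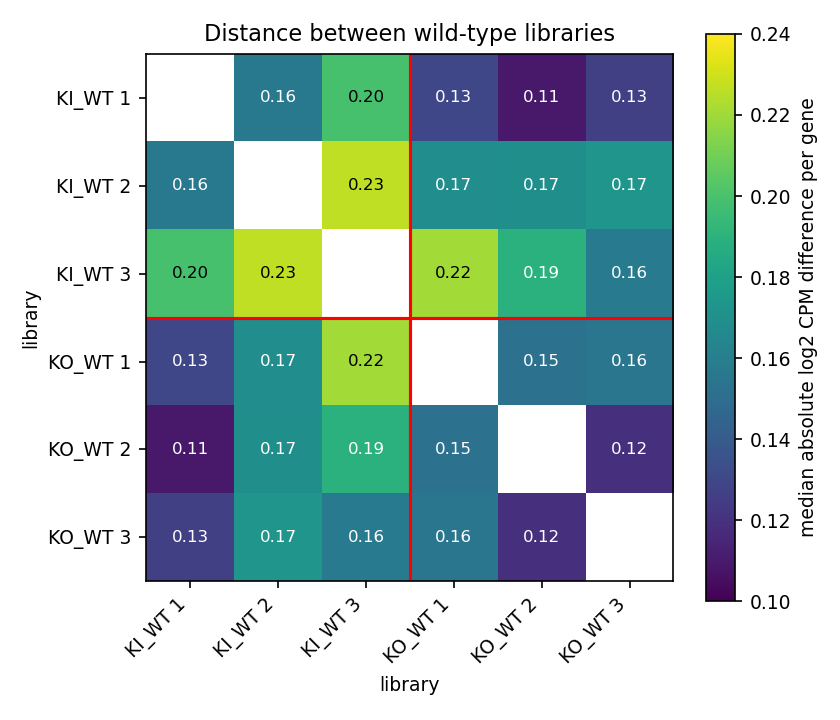
Cells give the median absolute log2 CPM difference per gene between 2 libraries, with KI_WT above and left of KO_WT and red lines between the groups. The largest values, 0.23 and 0.22, involve KI_WT 3, and the smallest, 0.11, joins KI_WT 1 with KO_WT 2.

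Grin1 itself (ENSMUSG00000026959; GRCm38 chromosome 2, 25291181 to 25319187, minus strand) was at a like level in both groups of controls. It measured 333, 299 and 327 CPM in KI_WT 1, 2 and 3, against 363, 329 and 308 CPM in KO_WT 1, 2 and 3. The groups overlap, and the means were 319 ± 18.3 CPM in KI_WT and 333 ± 27.6 CPM in KO_WT (SD, n = 3 each). The log2 difference was -0.06 (SE 0.0996, 95% interval -0.28 to 0.16), which bounds it within 1.5-fold. Gene counts do not show whether exon 5 was included. Per length, Grin1 was at 32.5 RPKM in KI_WT and 33.5 RPKM in KO_WT by the authors' deposited values. Of the 6 NMDA receptor subunits measured, 5 had a lower mean in KI_WT and 0 passed. Grin2b, a glutamate-binding subunit, was at 571, 415 and 381 CPM in KI_WT, against 515, 543 and 524 CPM in KO_WT, so KI_WT 1 was the highest of all and KI_WT 2 and 3 the lowest.

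Genes close to Grin1 on the chromosome would travel with a targeted allele, and both control groups carry the unmodified gene. Of the 114 genes annotated within 2 Mb of Grin1, 76 were measured, 37 of them higher and 39 lower in KI_WT, with a median log2 difference of -0.003. The smallest p belonged to Mrpl41, a mitochondrial ribosomal protein, at 40.4, 41.1 and 41.0 CPM in KI_WT against 36.3, 36.4 and 38.2 CPM in KO_WT. Its libraries do not overlap, yet the difference was only 0.14 on the log2 scale (SE 0.0640). In all, 3 of the 76 neighbours lay above without overlap and 4 below, near the 3.48% and 3.83% of all genes, and 0 passed the test.

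Of the 6 genes over 2-fold and above 10 CPM in both groups, only AC149090.1 (ENSMUSG00000095041) separated the control groups without overlap. This protein-coding gene lies on an unplaced scaffold of GRCm38 (JH584304.1, 52190 to 59690, minus strand), and its name was taken from GENCODE because the deposited table gives its ID only. It measured 191, 196 and 222 CPM in KI_WT, against 81.1, 99.6 and 90.4 CPM in KO_WT. All 3 KI_WT libraries lay well above all 3 KO_WT libraries, with means of 203 ± 16.9 CPM in KI_WT and 90.4 ± 9.27 CPM in KO_WT (SD, n = 3 each). The log2 difference was 1.17 (95% interval 0.47 to 1.87). It did not pass in the fit to all 12 libraries (edgeR adjusted p = 0.9998, unadjusted p = 0.00347), where other genes, Casr among them, had a smaller p. In that fit the mutants of the same lines spread widely. They measured 114, 205 and 206 CPM in KI and 141, 266 and 89.7 CPM in KO. Fitted to the 6 wild types alone, the difference was also 1.17 with an SE of 0.0962, and edgeR gave an adjusted p of 0.038. Over the alternatives its adjusted p ran from 0.038 to 1. Leaving out any 1 of the 6 libraries from that smaller fit ended the call (edgeR adjusted p 0.0523 to 0.532), while the difference stayed between 1.10 and 1.25. Whether reads are shared with near-identical copies elsewhere in the genome was not tested.

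The 8 higher genes with the smallest p were, besides AC149090.1, mostly of low abundance. Ebf3, a transcription factor of the early B-cell factor family (chromosome 7, 137193673 to 137314445), measured 2.85, 2.97 and 2.27 CPM in KI_WT, against 0.851, 0.871 and 1.32 CPM in KO_WT. Its groups did not overlap, and the log2 difference was 1.40 (SE 0.324). Fap, a membrane serine protease of stromal fibroblasts (chromosome 2, 62500943 to 62574075), measured 5.37, 5.10 and 3.64 CPM in KI_WT, against 2.68, 3.04 and 2.86 CPM in KO_WT, a log2 difference of 0.72 (SE 0.177). Slc15a2, a proton-coupled peptide transporter (chromosome 16, 36750177 to 36784962), was the most abundant of the rest. It measured 36.3, 40.9 and 46.7 CPM in KI_WT, against 33.3, 29.99 and 32.7 CPM in KO_WT, a log2 difference of 0.37 (SE 0.101). Socs1, a suppressor of cytokine signalling, measured 0.647, 0.795 and 0.777 CPM in KI_WT, against 0.347, 0.391 and 0.421 CPM in KO_WT. Mab21l2, a developmental regulator, rested on as few as 2 counts in a KO_WT library. The other 2 were the predicted genes 1700048O20Rik and A430106G13Rik. For all 8 the groups did not overlap, which the choice by p makes likely, and none passed the adjusted test.

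The 8 lower genes with the smallest p held several of moderate abundance. Lypd1, a membrane-anchored modulator of nicotinic acetylcholine receptors (chromosome 1, 125867622 to 125913101), measured 74.0, 82.4 and 66.5 CPM in KI_WT, against 108, 103 and 103 CPM in KO_WT. The KO_WT libraries were tightly grouped and all above KI_WT, and the log2 difference was -0.49 (SE 0.126). Zdhhc14, a protein palmitoyltransferase (chromosome 17, 5492557 to 5753811), measured 29.7, 23.6 and 24.3 CPM in KI_WT, against 34.9, 35.7 and 32.6 CPM in KO_WT, with a log2 difference of -0.41 (SE 0.0921). Papss2, which makes the sulfate donor for sulfation (chromosome 19, 32595790 to 32667187), measured 22.02, 21.6 and 17.9 CPM in KI_WT, against 26.0, 26.5 and 27.5 CPM in KO_WT. Slco3a1, an organic anion transporter, stood at 26.6 ± 1.78 CPM in KI_WT and 33.2 ± 2.68 CPM in KO_WT (SD, n = 3 each). Among low-abundance genes, Casr, the calcium-sensing receptor, had the smallest p of all genes (0.000729, edgeR, unadjusted; adjusted p = 0.9998). It measured 0.356, 0.122 and 0.299 CPM in KI_WT, against 0.945, 0.811 and 0.542 CPM in KO_WT, with as few as 4 counts in a KI_WT library and 18 in a KO_WT library. Was, an actin regulator of blood cells, stood at 0.772 ± 0.0260 CPM in KI_WT and 1.38 ± 0.282 CPM in KO_WT (SD, n = 3 each). Serpina3f, a serine protease inhibitor of the acute-phase family, was set by 2 libraries, KO_WT 2 at 0.571 CPM and KO_WT 3 at 0.722 CPM, both with animal numbers under 200. The other 4 wild types lay at 0.0299 to 0.0323 CPM. The mutants did not follow this number range. KO 1, also with a number under 200, was at 0.0548 CPM. KI 1, with a number over 300, was at 0.311 CPM, and the remaining mutants, all with such numbers, at 0.0276 to 0.0876 CPM. Gm2058, a predicted gene, completed the 8.

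**Figure D3:**
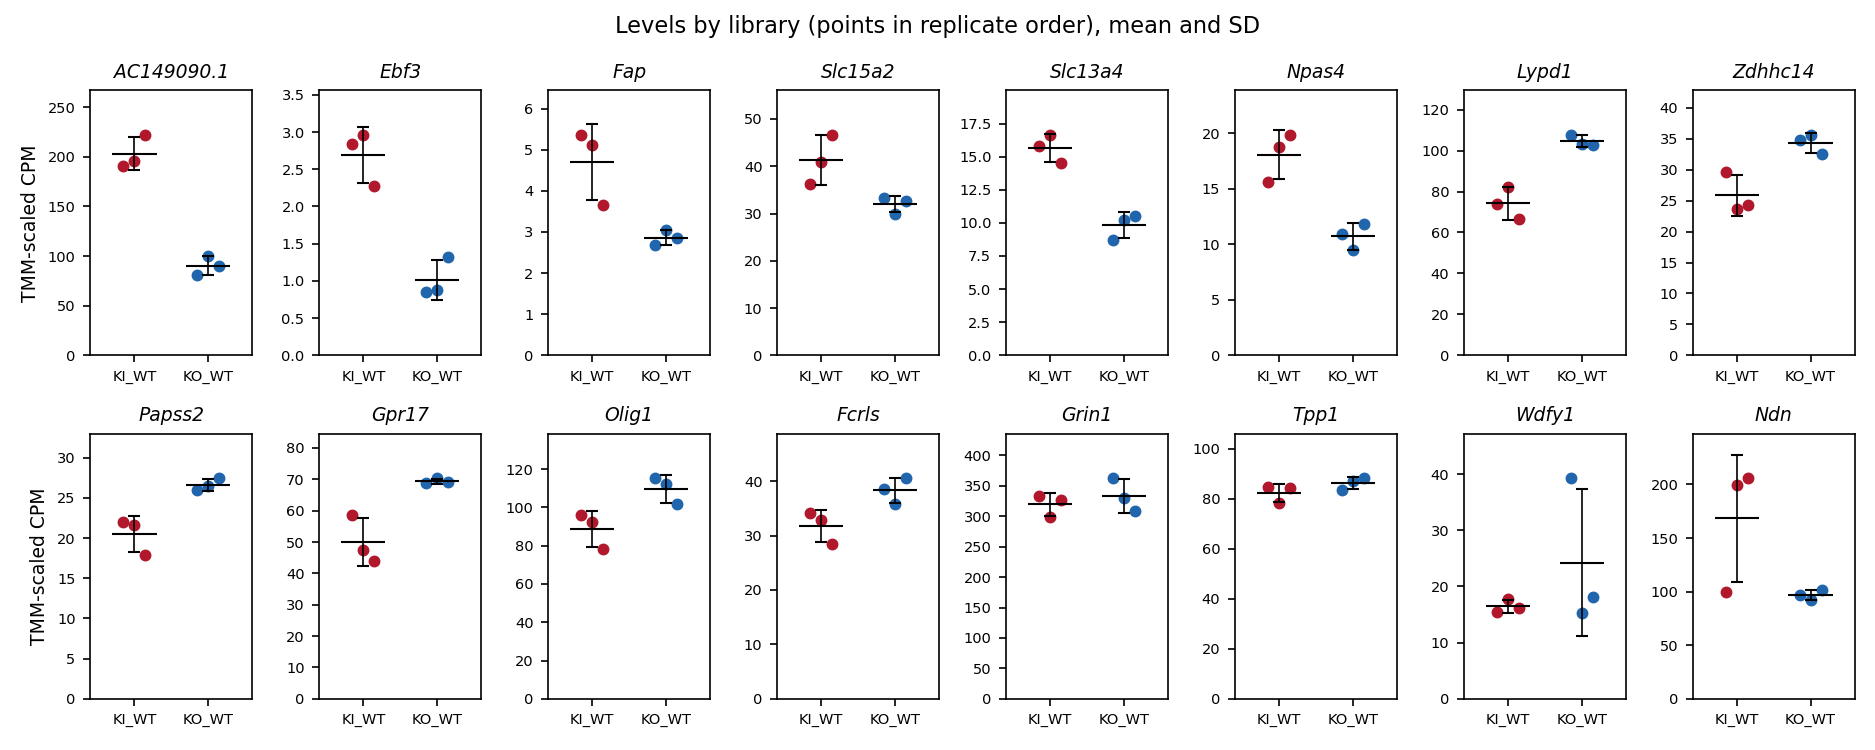
Panels give the TMM-scaled CPM of 16 genes in the 3 KI_WT (red) and 3 KO_WT (blue) libraries in replicate order, with the mean as a bar and the SD as whiskers, on axes that start at 0. AC149090.1, Ebf3, Lypd1 and Gpr17 separate the groups, Grin1 and Tpp1 overlap, and Wdfy1 is high in KO_WT 1 alone and Ndn in KI_WT 2 and KI_WT 3.

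Besides AC149090.1, Ndn and Ugt2a1 were each called by 1 alternative. Ndn, an imprinted gene of neurons, measured 100, 200 and 206 CPM in KI_WT, against 96.7, 91.9 and 102 CPM in KO_WT, so KI_WT 1 lay with KO_WT. It was called when KI_WT 1 was left out of the fit to the wild types alone (log2 difference 1.07, edgeR adjusted p = 0.0467), and not with that library (0.80, edgeR adjusted p = 0.9997). Ugt2a1, a glucuronosyltransferase of olfactory tissue, was the gene DESeq2 called (adjusted p = 0.00407). It had 0, 0.397 and 2.63 CPM in KI_WT, against 0 counts in all 3 KO_WT libraries, where a count of 0 allows up to 0.0907, 0.0883 and 0.0893 CPM in KO_WT 1, 2 and 3, counting error only. Among the wild types its highest value was in KI_WT 3, the library highest in olfactory bulb transcripts. KO_WT 3, the other wild type high in these transcripts, had 0 counts. Ugt2a1 was higher still in KO 1, at 4.14 CPM. The part of olfactory bulb transcripts in its level was not tested. Ndn and Ugt2a1 were chosen after their values were seen. Tpp1, a lysosomal peptidase named here because it passed in the same fit between KO and KO_WT, measured 84.4, 78.3 and 84.1 CPM in KI_WT, against 83.4, 87.2 and 88.2 CPM in KO_WT, and the groups overlapped.

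Glial genes had mostly lower means in KI_WT. In bulk tissue fewer cells of a type and less RNA per cell cannot be told apart. Of 11 oligodendrocyte precursor genes measured, 10 were lower in KI_WT, with a median log2 difference of -0.23, and 3 did so without overlap, beside a median of 0.0002 and 3.83% lower without overlap over all genes. Gpr17, a receptor of committed precursors, measured 58.5, 47.5 and 43.9 CPM in KI_WT, against 68.9, 70.4 and 69.0 CPM in KO_WT. All KI_WT libraries lay below the narrow KO_WT range, and the log2 difference was -0.47 (SE 0.140). Olig1, a transcription factor of the lineage, measured 95.9, 92.3 and 78.3 CPM in KI_WT, against 115, 112 and 102 CPM in KO_WT. Pdgfra, the growth factor receptor that defines precursors, measured 81.9, 74.8 and 58.2 CPM in KI_WT, against 95.8, 84.2 and 81.3 CPM in KO_WT, and KI_WT 1 overlapped KO_WT. Of these genes 0 passed the adjusted test. Without KI_WT 3, the lowest library, all 11 were lower, and the median was -0.14.

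Myelin genes showed a larger shift that leaned on KI_WT 3. Of 16 genes 13 were lower in KI_WT, with a median of -0.27, which became -0.12 without KI_WT 3. Mobp, a structural protein of compact myelin, measured 1561, 1400 and 923 CPM in KI_WT, against 1777, 2038 and 1652 CPM in KO_WT. KI_WT 3 was also the library highest in olfactory bulb and striatal transcripts, and the part of these in the lower myelin level was not tested.

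Astrocyte and microglia genes followed with smaller differences. Of 14 astrocyte genes 13 were lower in KI_WT, with a median of -0.13 that was -0.08 without KI_WT 3. Acsbg1, an acyl-CoA synthetase, was the 1 without overlap (3.83% of all genes), at 150, 153 and 151 CPM in KI_WT against 174, 157 and 161 CPM in KO_WT. Of 14 microglia genes 11 were lower, with a median of -0.13 and 3 without overlap (3.83% of all genes). Fcrls, a microglial surface receptor, measured 34.1, 32.8 and 28.5 CPM in KI_WT, against 38.5, 35.9 and 40.6 CPM in KO_WT, a log2 difference of -0.27 (SE 0.0880). C1qc, a complement component, measured 34.2, 40.0 and 35.0 CPM in KI_WT, against 41.1, 42.1 and 43.4 CPM in KO_WT. P2ry12, a purinergic receptor of resting microglia, had a higher mean in KI_WT, set by KI_WT 2, at 56.9, 82.0 and 51.0 CPM in KI_WT against 70.4, 56.6 and 55.9 CPM in KO_WT. Of 13 mural cell genes 8 were lower, with a median of -0.11 that was -0.005 without KO_WT 1. Of these 4 were without overlap (3.83% of all genes), among them Myh11, a smooth muscle myosin, at 12.54, 10.7 and 10.6 CPM in KI_WT against 14.2, 13.97 and 13.4 CPM in KO_WT. The endothelial list was split, with 5 of 14 genes higher. In these 6 lists 0 members passed.

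Nuclear genes of the respiratory chain leaned the other way. Of 82 nuclear genes of the respiratory chain 78 had a higher mean in KI_WT, with a median log2 difference of 0.13, and 14 did so without overlap (3.48% of all genes). Cox6c, a subunit of cytochrome c oxidase, measured 207, 265 and 216 CPM in KI_WT, against 185, 198 and 198 CPM in KO_WT. Cox7b, of the same complex, measured 114, 137 and 126 CPM in KI_WT, against 107, 110 and 112 CPM in KO_WT, a log2 difference of 0.19 (SE 0.0778). Ndufc2, of complex I, measured 73.0, 80.0 and 85.4 CPM in KI_WT, against 66.7, 66.1 and 70.3 CPM in KO_WT. KI_WT 2 was the highest library over the list, and without it 71 of 82 genes were higher with a median of 0.08. Leaving out KI_WT 1 gave a median of 0.21. It was 0.07 with limma voom and 0.08 with terms for the olfactory bulb, thalamus and choroid plexus. Of the 13 mRNAs of the mitochondrial genome 7 were higher, with a median of 0.05 that was -0.10 without KI_WT 2.

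The cytosolic ribosomal proteins were higher in KI_WT for 81 of 83 genes, with a median of 0.12, yet for 0 of them did the libraries separate. Over the list, KI_WT 1, 2 and 3 stood at -0.10, 0.25 and 0.02 on the log2 scale relative to the mean of the 6 libraries, against -0.07, -0.07 and -0.04 in KO_WT 1, 2 and 3. KI_WT 2 alone was far above, and KI_WT 1 was the lowest of all. Without KI_WT 2, 51 of 83 were higher and the median was 0.02. KI_WT 2 was also highest in the share of counts from the mitochondrial genome, and the part of this in the ribosomal values was not tested. The proteasome was higher for 36 of 42 subunits, with a median of 0.07 and 5 without overlap (3.48% of all genes), among them Psmb7, a catalytic subunit, at 126, 143 and 131 CPM in KI_WT against 114, 119 and 125 CPM in KO_WT. Cholesterol synthesis genes were higher for 19 of 22, with a median of 0.08. That count was 14 of 22 with a median of 0.03 without KI_WT 2, and 13 of 22 with a median of 0.02 in animals with numbers over 300 alone, while without KO_WT 1 the median was 0.13. Insig1, which retains the sterol sensor in the endoplasmic reticulum, measured 94.4, 111 and 99.3 CPM in KI_WT, against 91.8, 85.5 and 87.7 CPM in KO_WT, a log2 difference of 0.20 (SE 0.0773). Endoplasmic reticulum chaperones were lower for 18 of 20, with a median of -0.10. It ran from -0.19 without KI_WT 3 to -0.03 without KI_WT 2, where 12 of 20 were lower, and was -0.04 without KO_WT 2 and -0.15 without KO_WT 1. Hyou1 measured 87.8, 75.1 and 97.5 CPM in KI_WT, against 98.2, 104 and 102 CPM in KO_WT, and in the animals with numbers over 300 alone the median of that list was 0.04. Not a single member of these lists passed.

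**Figure D4:**
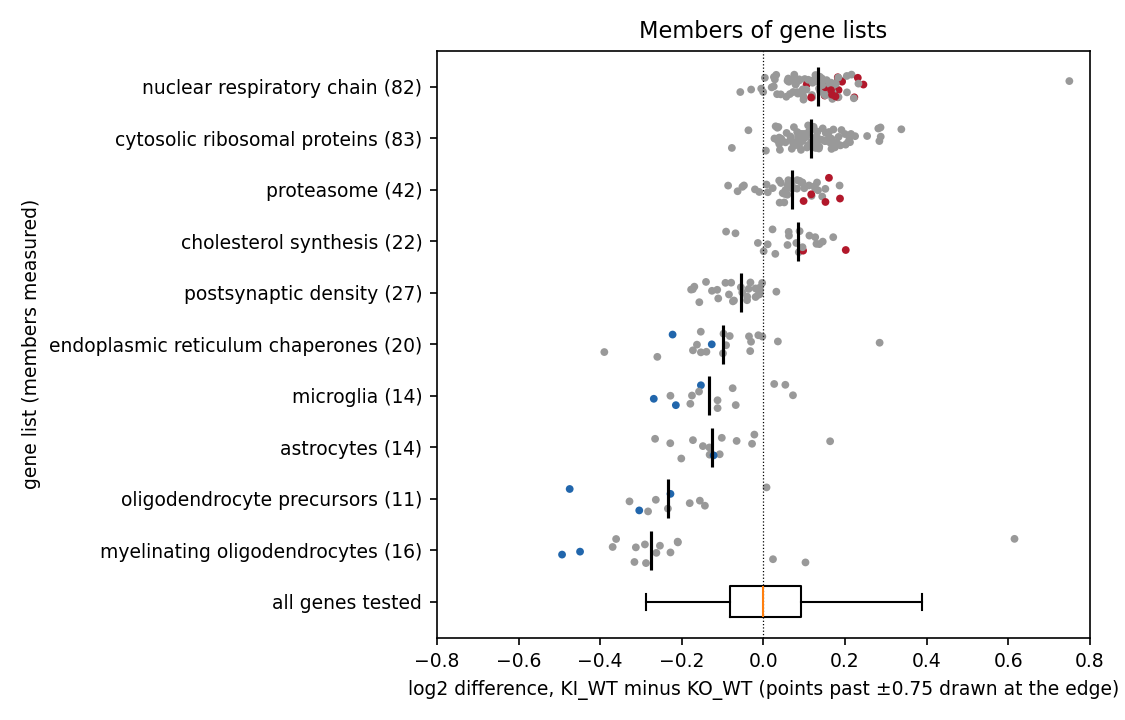
Points are the log2 differences (KI_WT minus KO_WT) of the members of 10 gene lists, red or blue where the libraries lie apart without overlap and grey otherwise, and black lines are medians. The box at the bottom spans the quartiles of all 17441 genes with whiskers at the 5th and 95th percentiles; list medians run from -0.27 for myelin genes to 0.13 for the nuclear respiratory chain.

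Synaptic genes lay close to no difference. Of 27 genes of the postsynaptic density 26 were lower in KI_WT, but the median was -0.06 and 0 separated without overlap. Without KI_WT 3 the count was 15 of 27, and without KO_WT 1 the median was 0.02. Camk2a, a calcium-dependent kinase of excitatory synapses, measured 3661, 3295 and 2097 CPM in KI_WT, against 3655, 3461 and 3062 CPM in KO_WT, so KI_WT 3 alone was low. Presynaptic release genes had a median of -0.03, with 9 of 24 higher, and that median was 0.01 without KI_WT 3 and 0.04 without KO_WT 1. Gria2, the AMPA receptor subunit that controls calcium permeability, was the 1 of 9 AMPA and kainate genes higher without overlap (3.48% of all genes). It measured 1185, 1196 and 1221 CPM in KI_WT against 963, 1147 and 1127 CPM in KO_WT, a log2 difference of 0.15 (SE 0.0892). The AMPA and kainate list was split at 3 of 9 higher and the GABA-A list at 5 of 12 higher.

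Immediate early genes, which neurons transcribe within minutes of activity, differed more between animals than between lines. Of 21 genes 15 had a higher mean in KI_WT, with a median of 0.11 that ran from -0.02 without KI_WT 3 to 0.32 without KO_WT 2. Over the list KI_WT 1, 2 and 3 stood at 0.23, -0.47 and 0.40 on the log2 scale relative to the 6 libraries, against -0.24, 0.12 and -0.04 in KO_WT 1, 2 and 3. KI_WT thus held both the lowest and the highest library. Arc, a regulator of receptor endocytosis, measured 214, 68.9 and 212 CPM in KI_WT, against 75.9, 196 and 134 CPM in KO_WT. Fos, a subunit of the AP-1 factor, measured 26.7, 16.7 and 42.8 CPM in KI_WT, against 15.7, 24.5 and 22.9 CPM in KO_WT.

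Of the 21 genes 1 lay higher in KI_WT without overlap, beside 3.48% of all genes. This was Npas4, a transcription factor induced by calcium entry into neurons. It measured 15.7, 18.7 and 19.9 CPM in KI_WT, against 10.9, 9.47 and 11.9 CPM in KO_WT, with a log2 difference of 0.75 (SE 0.263; edgeR adjusted p = 0.9998). KI_WT 2, the lowest library for Fos, Arc and Egr2 among KI_WT, was not low for Npas4. Nr4a2, a nuclear receptor, lay lower without overlap at 32.1, 41.7 and 43.0 CPM in KI_WT against 43.3, 46.4 and 45.6 CPM in KO_WT. It was the 1 listed gene that did so, beside 3.83% of all genes. The 250 bases before the start sites of Npas4 (GRCm38.p6, chr19:4989972-4990221, minus strand) and Fos (chr12:85473640-85473889, plus strand), from RefSeq, are shown. A listed gene without overlap and a canonical member with overlap can thus be read side by side. Capitals mark the core of the cyclic AMP response element, TGACGT, or the same core on the opposite strand, ACGTCA.
Npas4: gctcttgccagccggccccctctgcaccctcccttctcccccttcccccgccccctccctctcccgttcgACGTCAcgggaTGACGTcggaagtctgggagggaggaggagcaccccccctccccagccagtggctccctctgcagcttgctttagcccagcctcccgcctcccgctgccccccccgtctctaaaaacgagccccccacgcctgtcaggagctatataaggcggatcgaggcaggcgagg
Fos: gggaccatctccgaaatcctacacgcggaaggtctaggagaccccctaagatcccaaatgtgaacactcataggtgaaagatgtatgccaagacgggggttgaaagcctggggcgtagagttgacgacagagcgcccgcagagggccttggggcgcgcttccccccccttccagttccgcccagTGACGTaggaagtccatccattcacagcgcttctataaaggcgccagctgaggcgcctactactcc
The core occurs at 2 places before Npas4 and at 1 before Fos. It was present in a promoter window, from 250 bases before to 50 after the start, for 10 of the 16 immediate early genes with a promoter in the table (62.5%) and for 2263 of 27025 genes (8.37%), or in 2468 of 32851 windows (7.51%). A match of letters describes the window and shows no binding.

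Stress-related lists also varied by animal. Of 15 glucocorticoid-responsive genes 13 were lower in KI_WT, with a median of -0.17, and KI_WT 2 was the lowest library at -0.57 relative to the 6. Mt2, a metallothionein, measured 108, 102 and 87.8 CPM in KI_WT, against 112, 123 and 137 CPM in KO_WT. It was the 1 of 15 lower without overlap (3.83% of all genes). Without KI_WT 2 the median of the list was -0.08, and without KI_WT 1 it was -0.32. It turned to 0.06 in animals with numbers over 300 alone, with 11 of 15 genes higher, and to 0.07 with a term for number range. Per2, a repressor of the circadian clock, measured 30.1, 18.6 and 23.2 CPM in KI_WT, against 29.7, 33.7 and 34.0 CPM in KO_WT, with KI_WT 1 inside the KO_WT range. Over the clock list 7 of 18 genes were higher.

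Transcripts of regions next to the cortex differed widely between animals of the same group. Ttr, the transthyretin of choroid plexus, measured 1508, 1122 and 2.36 CPM in KI_WT, against 8.69, 801 and 8.85 CPM in KO_WT. It was thus abundant in KI_WT 1, KI_WT 2 and KO_WT 2 and low in the other 3. All 16 choroid plexus genes had a higher mean in KI_WT, with a median of 1.27 that was 0.63 without KI_WT 1 and 2.74 without KO_WT 2. The olfactory bulb list stood at -0.99, -0.72 and 2.22 on the log2 scale relative to the 6 libraries in KI_WT 1, 2 and 3, against -0.84, -1.13 and 1.45 in KO_WT 1, 2 and 3, with its median difference at 0.56 and, without KI_WT 3, at -0.81. The thalamic list summed to 248, 235 and 307 CPM in KI_WT, against 214, 446 and 250 CPM in KO_WT, and Prkcd reversed to 0.17 without KO_WT 2. The striatal list summed to 880, 890 and 1930 CPM in KI_WT, against 1760, 1290 and 1200 CPM in KO_WT. Penk, the enkephalin precursor, followed it at 103, 116 and 282 CPM in KI_WT against 222, 165 and 180 CPM in KO_WT.

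Hormone transcripts were scarce and patchy. The hypothalamus and pituitary list summed to 35.7, 36.9 and 31.1 CPM in KI_WT, against 13.2, 11.2 and 18.6 CPM in KO_WT. These sums do not overlap, but different genes supplied them. By the mean log2 level of its members the list did overlap, with KI_WT 1 at -0.21 and KO_WT 3 at 0.20. On that measure 2 of 37 lists were higher without overlap, the nuclear respiratory chain and the proteasome. Another 4 were lower, namely NMDA receptor subunits, oligodendrocyte precursors, astrocytes and mural cells. KI_WT 1 held Prl and Gh, at 23.5 and 4.56 CPM. KI_WT 2 and KI_WT 3 held Avp, the vasopressin precursor, at 11.8 and 8.24 CPM, where KI_WT 1 had 0.356 CPM and KO_WT had 0.441, 2.34 and 1.66 CPM. Meningeal genes were higher in KI_WT for 12 of 17, with a median of 0.21. This became 0.12 without KO_WT 1, 0.13 without KI_WT 3 and -0.08, with 6 of 17 higher, when terms for the olfactory bulb, thalamus and choroid plexus were added. Slc13a4, a sulfate transporter of the meninges, was the 1 of 17 higher without overlap (3.48% of all genes). It measured 15.8, 16.7 and 14.5 CPM in KI_WT against 8.69, 10.2 and 10.5 CPM in KO_WT, a log2 difference of 0.67 (SE 0.2397).

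**Figure D5:**
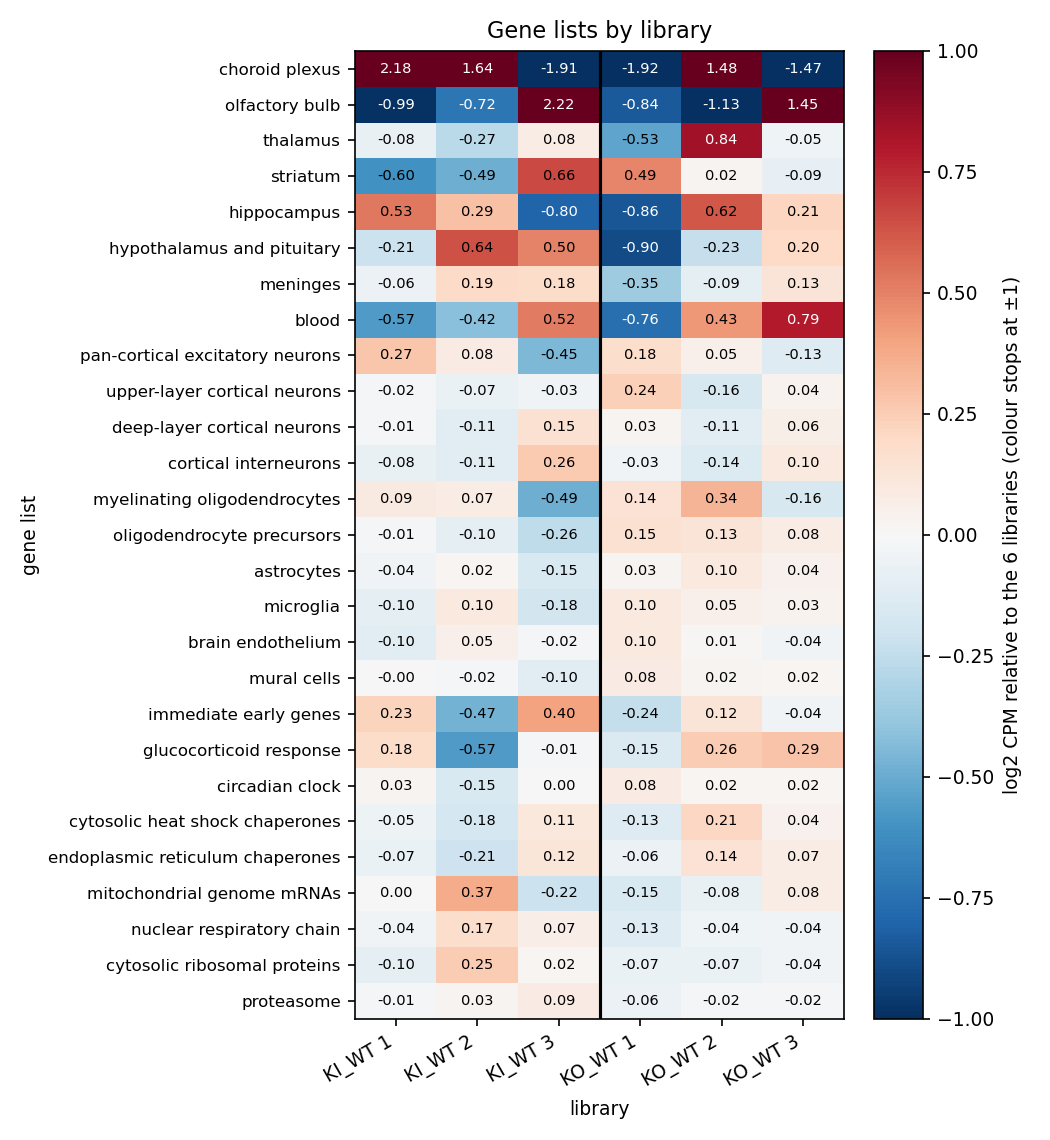
Cells give the mean log2 CPM of the members of 27 gene lists in each wild-type library, relative to the mean of the 6 libraries, with KI_WT left of the black line and KO_WT right of it. Choroid plexus runs from -1.91 to 2.18 within KI_WT and from -1.92 to 1.48 within KO_WT. Olfactory bulb runs from -0.99 to 2.22 within KI_WT and from -1.13 to 1.45 within KO_WT. Cell classes of the cortex and metabolic lists stay within ±0.50.

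Substrain alleles can separate mouse colonies, and 7 of 9 genes listed for C57BL/6 substrains were measured. All 7 had a lower mean in KI_WT, with a median of -0.08, and 0 separated without overlap. The median was -0.03 without KO_WT 1, -0.05 without KI_WT 2 and -0.18 without KI_WT 3, where 5 of 7 were lower. Nnt, a mitochondrial transhydrogenase that carries a deletion in one substrain, measured 20.2, 18.3 and 18.4 CPM in KI_WT, against 18.0, 20.3 and 20.4 CPM in KO_WT. Wdfy1, an endosomal adaptor, measured 15.5, 17.7 and 16.2 CPM in KI_WT, against 39.3, 15.3 and 18.1 CPM in KO_WT, so the mean of KO_WT was raised by KO_WT 1 alone.

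Among the wild types both number ranges occur only in the knockout line, where KO_WT 1 alone has a number over 300. In libraries with such numbers alone, where that library is assumed to vary like the others, 0 of 18187 genes had an adjusted p under 0.05 in edgeR and 501 (2.75%) an unadjusted p under 0.05. With the number range as a term in the fit to all 12 libraries, 1160 genes (6.65%) had an unadjusted p under 0.05 and 0 an adjusted one. In the libraries with numbers over 300 the log2 difference was 1.33 for AC149090.1, -0.53 for Lypd1, -0.46 for Gpr17 and 0.74 for Npas4, but -0.02 for Serpina3f and -0.46 for Was, which stood at -3.70 and -0.84 with all libraries. In the same libraries the list medians turned to 0.12 for cytosolic heat shock chaperones, 0.42 for blood and 0.25 for thalamus, which stood at -0.04, -0.15 and -0.15 with all libraries. Number range and line cannot be told apart for the 2 KO_WT libraries with numbers 93 and 95. In the same fit to 12 libraries, 1214 genes (6.96%) had an unadjusted p under 0.05 between KI and KI_WT, and 1260 (7.22%) between KO and KO_WT, while the wild types gave 1.96% of genes. These comparisons share the wild-type libraries, and the difference between their counts was not tested. An exact permutation test of 3 against 3 libraries cannot give a p below 0.1, so single genes are described by their values and the error of the fit.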

How the data were processed

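Per the labels, poly(A) RNA of cortex was sequenced in 12 libraries of 4 groups. Demultiplexing and alignment tools named in the submitters' processing notes are bcl2fastq 2.17, STAR 2.5.0c and Cufflinks 2.2.1 with build GRCm38, without their roles. The read counter, annotation and strand setting are not given in the sources used here, so reads of overlapping or antisense genes and near-identical copies may be assigned to either gene. The authors deposited raw counts for 41388 genes and RPKM values for the same genes and libraries. The ratio of count to RPKM gave a constant gene length across libraries (largest deviation 0.0534%, 8292 genes). All columns matched a library title, with 0 left unassigned. Gene positions came from GENCODE, in which 40340 IDs matched. Total counts were 31790970 to 33969744 in the wild types, and intervals and floors cover counting or model error only.

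The counts were tested with edgeR 4.0.16 (R 4.3.3). After filterByExpr, which kept 17441 genes, and TMM scaling, a quasi-likelihood model took all 12 libraries with a mean for each group (residual degrees of freedom 8, common biological variation 15.7%), and p-values of KI_WT against KO_WT were adjusted by Benjamini-Hochberg over all genes with a threshold of 0.05. The fit was tested on simulated data. No library was a copy of another of its group, since the variance between replicates was 13.6 to 73.5 times that of sampling. Pairs across groups were not part of this check.

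As alternatives, size factors were taken by RLE, the filter was dropped or set to 1 CPM in 3 or more libraries, the 6 wild types were fitted alone, and DESeq2 1.42.0, limma 3.58.1 (voom with quality weights) or limma on log2(RPKM + 0.1) and log2(RPKM + 1) was used, the RPKM fits with genes over 0.5 RPKM in 3 or more libraries. Terms were added for Y-linked expression, for 3 regional lists and for animal number range. Further alternatives were animal numbers over 300 alone and each wild type left out in turn. Leaving out both wild types high in olfactory bulb transcripts, and leaving out each library from the fit to the wild types alone, were chosen after seeing the data. Members of lists were counted and their median given beside all genes, with no test of a list. Named genes are Grin1, the 8 higher and 8 lower genes with the smallest p, up to 5 members by smallest p of each of 37 lists, and genes within 2 Mb of Grin1. Predicted genes among the first set are counted, and some named members are not reported here. Further members, and the genes that set 1 library apart, were chosen after their values were seen. Signs and calls under the alternatives were counted for 58 genes. They are Grin1, the 8 higher and 8 lower genes, the member with the smallest p of each list, Tpp1, Ndn, Ugt2a1 and Igfbp2. Other genes described, Arc, Fos, Olig1 and Cox6c among them, were not part of that count. The comparison, lists and tests were chosen with earlier results of these data known.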

Additional observations from a re-analysis of the deposited data

How the results depend on the processing

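The count of genes past an adjusted p of 0.05 stayed at 0 except under edgeR on the 6 wild types alone (1, AC149090.1), DESeq2 (1, Ugt2a1) and the wild types alone without KI_WT 1 (1, Ndn). Leaving out 1 library gave 0 in the fit to 12 libraries and 0 to 1 in the fit to 6. The count at an unadjusted p under 0.05 became 587 with limma voom and 1160 with a term for the animal number range, and ran from 276 to 663 when 1 library was left out of the 12, highest without KI_WT 1, and from 248 to 772 in the fit to 6, where it was 686 without KI_WT 3 and 772 without KI_WT 1. The cause of these shifts was not tested. Non-overlapping genes numbered 1278 with RLE factors and 1069 on RPKM.

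Of 1421 values of the 58 genes followed under 18 planned and 7 added alternatives, 20 had the opposite sign, over 10 genes. With terms for the olfactory bulb, thalamus and choroid plexus these were Grin1 (0.037), Kdm5d (2.18), Xist (-15.85), Wdfy1 (0.055) and Prl (-1.05), with a term for Y-linked expression Prl (-3.25), with animal numbers over 300 alone Prkcd (0.057) and S100a8 (2.44), and without the 2 wild types high in olfactory bulb transcripts Lhx6 (0.0063). Leaving out 1 library from the 12 gave ranges of -0.11 to 0.0092 for Grin1 (highest without KO_WT 1), -1.0 to 0.095 for Kdm5d and -3.77 to 6.35 for Prl (turned without KI_WT 1), -0.21 to 1.599 for A230065H16Rik and -0.32 to 0.039 for Camk2a (turned without KI_WT 3), and -1.52 to 0.17 for Prkcd (turned without KO_WT 2). In the fit to 6 the turned values were 0.0057 for Grin1, 0.088 for Kdm5d, -0.21 for A230065H16Rik, 0.044 for Camk2a and 0.17 for Prkcd. Of 925 list medians 52 moved by more than the spread between replicates, over 20 lists.

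No paired analysis was possible because the groups share no animal number and replicate numbers follow the order of the records. Low counts limit Casr, Mab21l2 and Ugt2a1.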

Other observations

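For several genes that separated the wild types, the levels in the mutant libraries are given beside them. These genes were chosen by a small p between the wild types. That choice alone makes mutant levels nearer the middle likely. Lypd1, at 74.0, 82.4 and 66.5 CPM in KI_WT and 103 to 108 CPM in KO_WT, measured 128, 104 and 110 CPM in KI and 95.5, 68.2 and 92.8 CPM in KO. Gpr17 measured 62.7, 58.1 and 66.7 CPM in KI and 50.5, 39.9 and 61.4 CPM in KO. Zdhhc14 measured 32.8, 34.0 and 35.8 CPM in KI and 28.1, 29.8 and 31.2 CPM in KO, so the KI libraries lay near the KO_WT range of 32.6 to 35.7 CPM rather than near their own controls. Papss2 measured 21.8, 19.7 and 23.5 CPM in KI and 20.4, 18.8 and 19.97 CPM in KO, where only KO_WT, at 26.0 to 27.5 CPM, stood apart. Npas4 measured 16.2, 7.65 and 7.71 CPM in KI and 17.6, 12.2 and 18.8 CPM in KO. The difference between mutants and controls was not tested here for these genes beyond the values given.

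The high Wdfy1 level of KO_WT 1 (39.3 CPM) recurred in 1 other library of the study, KO 3 at 39.5 CPM, while the remaining 10 libraries lay between 12.6 and 18.1 CPM. Both animals are of the knockout line and have numbers over 300. So does KO 2 (number 360), in which Wdfy1 was at 14.7 CPM.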
